A study of Mus musculus with 9 samples.

Results

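The GABA-A receptor subunit transcripts described here are the 7 genes Gabra2, Gabra3, Gabra4, Gabra5, Gabrb1, Gabrb2 and Gabrg1, each taken as the row of the deposited table that carries its symbol, out of 24487 rows. RNA was sequenced from 5 libraries of whole midbrain and 4 libraries of midbrain dopaminergic neurons of mice of the C57BL/6 strain background, and both kinds of library were made from total RNA with the same amplification and library kits. Sex, age and any transgene are not given in the labels, nor how the dopaminergic RNA was isolated. The table's name contains the word bacTRAP, which commonly stands for pulling down tagged ribosomes of 1 cell type with their RNA. If that method was used, RNA on ribosomes was set against RNA of the whole tissue, which cannot be told apart from the difference of cell type. No label says that each library is from its own animal. The p-values therefore cover the spread among these libraries, which may be technical.

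GABA-A receptors are chloride channels that open when GABA binds, and they carry most fast inhibition in the brain. Each channel is a ring of subunits, usually of the alpha, beta and gamma or delta classes. GABA binds where an alpha meets a beta subunit, and benzodiazepines bind where certain alpha subunits meet a gamma subunit. The choice of alpha subunit sets drug sensitivity and whether a receptor sits at the synapse or away from it, and midbrain dopaminergic neurons receive dense GABAergic input.

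Of the 7 members 1 rose in dopaminergic neurons and 6 fell. Gabra4, the alpha4 subunit, was 3.13-fold higher than in whole midbrain. Gabrg1, Gabrb2, Gabra2, Gabra5 and Gabrb1 stood at 16.1 to 34.8 percent of their whole midbrain level and Gabra3 at 71.2 percent. Gabra4 had the lowest mean of the 7 in whole midbrain and the highest in dopaminergic neurons. The unit is FPKM, read fragments per kilobase of transcript and of sequencing depth, so levels can be compared approximately between genes. The transcript lengths used were not given, and a correction for exonic length still moved some fold changes, as for Gabrb1 below. The groups were compared with limma on log2(FPKM + 1) over the 13106 genes whose mean reached 1 FPKM, with Benjamini-Hochberg adjustment over all of them. All 7 members passed that filter, and each had a mean above 1 FPKM in both groups. Calls were common among all genes tested, with 74.2 percent called at an adjusted p under 0.05, 38.3 percent higher and 36.0 percent lower. Every dopaminergic library lay above every whole midbrain library for 32.6 percent of genes, and below for 31.8 percent. In bulk RNA, fewer cells of a type and less RNA per cell cannot be told apart.

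**Figure D1:**
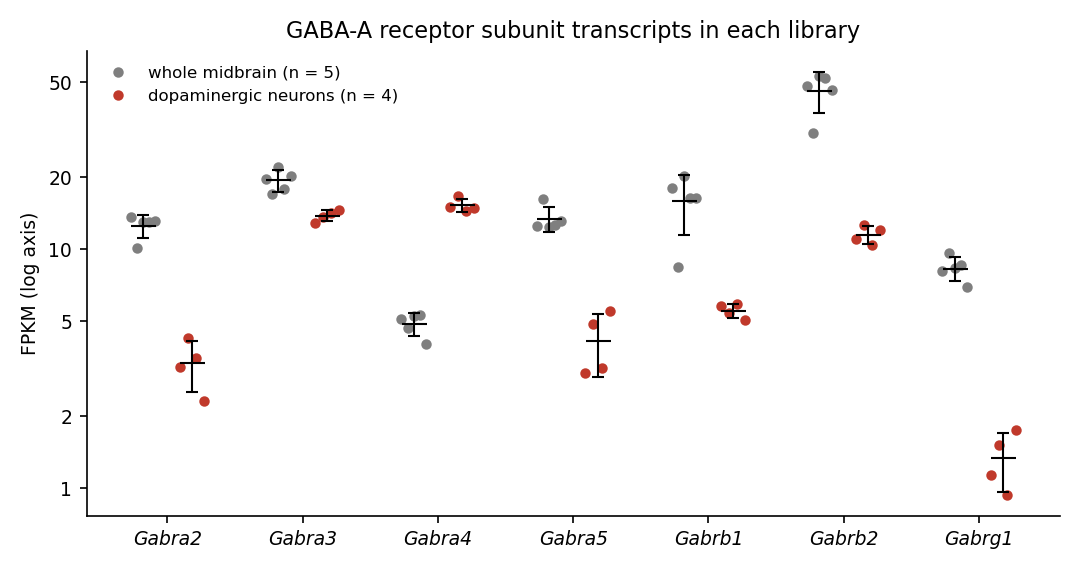
FPKM of the 7 members on a log axis, with 1 point per library and the mean ± SD of 5 whole midbrain libraries (grey) and 4 dopaminergic libraries (red). The red points lie above the grey ones for Gabra4 and below them for the other members.

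The dopaminergic label held in the markers. All 6 marker genes of dopaminergic neurons rose, and Th, the rate-limiting enzyme of dopamine synthesis, ran from 1491 to 1722 FPKM in the dopaminergic libraries against 43.7 to 51.5 in whole midbrain. Markers of other cells were lower and still present. The 9 astrocyte markers summed to 174 to 206 FPKM in dopaminergic libraries against 1042 to 1222 in whole midbrain. Most of the dopaminergic sum was Aldoc, at a mean of 151 FPKM. Aldoc stood at 28.9 percent of its whole midbrain mean and the others at 3.42 to 10.7 percent. The 3 GABAergic markers Gad1, Gad2 and Slc32a1 summed to 42.6 to 49.4 FPKM against 241 to 276. Across genes, libraries correlated at 0.9897 to 0.9914 (Pearson's r of log2 values) among dopaminergic libraries and at 0.947 to 0.962 among whole midbrain libraries without library 2. Library 2 stood apart, with r of 0.903 to 0.906 to the other libraries of whole midbrain. Genes are not independent replicates.

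On chromosome 5, 4 members lie side by side, and Gabra4 is the neighbour of 3 members that fell. In the table's coordinates (mm10) the order is Gabrg1 (chr5:70751047-70842617), Gabra2 (chr5:70961057-71095849), Gabra4 (chr5:71569734-71658308) and Gabrb1 (chr5:71700016-72137244). The first 3 are on the minus strand and Gabrb1 is on the plus strand, so Gabra4 and Gabrb1 are transcribed away from each other. The starts of Gabra4 and Gabrb1 are 41708 bases apart in the table. RefSeq (GRCm38.p6, the same assembly as mm10) also lists a start of Gabrb1 inside Gabra4, 387 bases from the Gabra4 start. GENCODE M21 has 46 exonic bases shared by both genes on opposite strands, and no label says that the strand was kept. Gabra4 has 6083 exonic bases in GENCODE M21, and the part of shared reads in the levels of both genes was not tested.

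**Figure D2:**
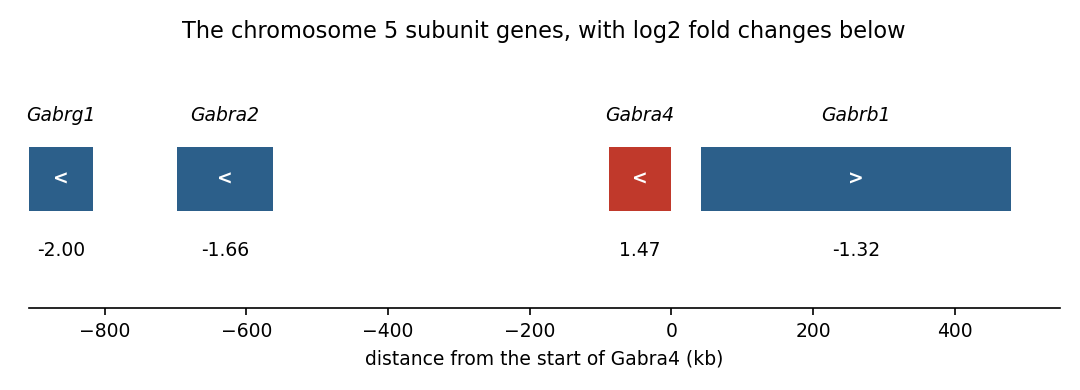
Map of the chromosome 5 members to scale, as distance in kb from the start of Gabra4, with the direction of transcription marked on each gene and its log2 fold change printed below. Gabra4 (red, 1.47) lies between Gabra2 (-1.66) and Gabrb1 (-1.32), which with Gabrg1 (-2.0) are drawn in blue.

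All 7 members matched the RefSeq promoter table (GRCm38.p6), with 11 windows of 300 bases that run from 250 bases before to 50 bases after a start. The windows of the neighbouring pair with opposite changes, Gabra4 and Gabrb1, are shown 5′ to 3′ on each gene's own strand, with that of Gabrg1, which had the lowest percent left. Capitals mark the GC box GGGCGG read on either strand, a letter pattern bound by Sp1. The Gabra4 window is chr5:71658259-71658558 (minus strand), those of Gabrb1 are chr5:71657671-71657970 (the start inside Gabra4) and chr5:71699682-71699981 (plus strand), and that of Gabrg1 is chr5:70842568-70842867 (minus strand).
Gabra4: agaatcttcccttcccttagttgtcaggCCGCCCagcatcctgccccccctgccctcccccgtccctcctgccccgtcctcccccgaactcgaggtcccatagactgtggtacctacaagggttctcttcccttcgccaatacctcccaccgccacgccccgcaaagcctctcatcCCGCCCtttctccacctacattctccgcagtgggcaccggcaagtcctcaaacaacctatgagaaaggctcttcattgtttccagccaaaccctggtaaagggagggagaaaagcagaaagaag
Gabrb1 (start inside Gabra4): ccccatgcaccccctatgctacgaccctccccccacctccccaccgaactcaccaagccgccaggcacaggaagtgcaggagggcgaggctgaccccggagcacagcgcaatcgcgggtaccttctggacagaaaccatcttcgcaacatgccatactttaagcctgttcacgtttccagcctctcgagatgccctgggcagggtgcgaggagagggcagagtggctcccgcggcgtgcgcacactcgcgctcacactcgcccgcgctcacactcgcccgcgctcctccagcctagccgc
Gabrb1 (start next to that in the table): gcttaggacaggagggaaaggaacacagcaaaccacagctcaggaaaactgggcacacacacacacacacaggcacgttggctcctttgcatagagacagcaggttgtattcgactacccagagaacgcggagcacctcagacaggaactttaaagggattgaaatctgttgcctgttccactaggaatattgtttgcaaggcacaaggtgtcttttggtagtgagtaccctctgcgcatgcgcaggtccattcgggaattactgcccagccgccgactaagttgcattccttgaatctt
Gabrg1: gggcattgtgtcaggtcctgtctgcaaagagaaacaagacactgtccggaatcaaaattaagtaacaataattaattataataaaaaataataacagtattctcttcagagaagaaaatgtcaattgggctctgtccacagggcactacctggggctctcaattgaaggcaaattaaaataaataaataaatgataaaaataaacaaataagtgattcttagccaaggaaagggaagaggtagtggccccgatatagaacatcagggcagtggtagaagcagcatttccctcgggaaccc

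The Gabra4 window held 2 GC boxes and 12 CpG dinucleotides, with 58.7 percent G and C. The windows of Gabrb1 held 25 and 9 CpG and no GC box, and that of Gabrg1 held 3 CpG, no GC box and 38.3 percent G and C. The window of Gabra2 (chr5:71095800-71096099), not printed, held 25 CpG and 2 GC boxes, so GC boxes were found in the window of a member that rose and in that of a neighbour that fell. A GC box was in 35.7 percent of all 32851 RefSeq windows of that length, and the median number of CpG was 7. Longer patterns were searched on both strands in the 11 member windows, the Egr pattern GCGTGGGCG (in 0.612 percent of all windows), the Nr4a pattern AAAGGTCA (1.51 percent) and the cAMP response element TGACGTCA (1.79 percent). No match to them was found in these windows. A TATA pattern, TATAAA (13.6 percent of all windows), was found once for Gabra3, on the strand opposite to the gene, as 1 site that lies in both of its overlapping windows. It was also in 1 of the 3 windows of Gabrb2, on the gene's own strand.

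Among the alpha subunits, Gabra4 is known from receptors outside the synapse that respond to low, lasting GABA and are insensitive to classical benzodiazepines. It was at 5.09, 4.68, 5.27, 5.29 and 4.0 FPKM in whole midbrain libraries 1 to 5 and at 15.0, 16.7, 14.4 and 14.9 FPKM in dopaminergic libraries 1 to 4. The lowest dopaminergic library was at 14.4, above the highest whole midbrain library at 5.29. The means were 15.2 ± 0.984 FPKM (SD, n = 4) and 4.87 ± 0.543 (SD, n = 5). The log2 fold change of Gabra4 was 1.47 ± 0.0885 (SE), with limma adjusted p = 2.0e-07, and 93.2 percent of the genes tested had a lower one.

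Gabra3 encodes the alpha3 subunit, known as the main alpha subunit of many monoaminergic neurons (chrX:72432676-72656246, minus strand). Its FPKM was 19.6, 17.1, 22.2, 17.9 and 20.2 in whole midbrain and 12.9, 13.6, 14.2 and 14.6 in dopaminergic neurons. The groups lay close together without overlap, with 14.6 as the highest dopaminergic value and 17.1 as the lowest of whole midbrain. The fall was the smallest of the 6, -0.46 ± 0.0858 (SE) on the log2 scale (limma adjusted p = 0.000694), and 31.3 percent of the genes tested had a lower log2 fold change.

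Gabra2, the alpha2 subunit, is common at synapses of forebrain neurons. It stood at 13.6, 10.1, 13.0, 12.9 and 13.1 FPKM in whole midbrain and at 3.22, 4.27, 3.51 and 2.31 FPKM in dopaminergic neurons. Whole midbrain library 2 was the lowest of its group, and dopaminergic library 4 the lowest of the other. The log2 fold change of Gabra2 was -1.66 ± 0.136 (SE, limma adjusted p = 1.7e-06). Relative to the mean, its SD was 24.3 percent in dopaminergic neurons and 11.0 percent in whole midbrain.

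Gabra5, the alpha5 subunit, is known from extrasynaptic receptors of the hippocampus (chr7:57407669-57510009, minus strand). In whole midbrain it was at 12.5, 16.1, 12.4, 12.6 and 13.2 FPKM, with library 2 above the others. In dopaminergic libraries 1 to 4 it was at 3.04, 4.85, 3.17 and 5.49 FPKM, so libraries 2 and 4 were higher than 1 and 3. The fall was -1.51 ± 0.153 (SE) on the log2 scale (limma adjusted p = 8.3e-06). GENCODE M21 has 148 exonic bases shared by Gabra5 and an antisense gene, and without strand their reads cannot be told apart.

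The beta subunits form the GABA site together with an alpha subunit. Gabrb2 (chr11:42419757-42632591, plus strand) had the highest level of the 7 members in whole midbrain, at 48.1, 30.7, 53.3, 52.1 and 46.3 FPKM, with library 2 lowest. It was at 11.0, 12.6, 10.4 and 12 FPKM in dopaminergic neurons, all below 30.7. The log2 fold change was -1.89 ± 0.151 (SE, limma adjusted p = 1.4e-06).

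Gabrb1 was at 18.0, 8.44, 20.3, 16.3 and 16.4 FPKM in whole midbrain and at 5.76, 5.41, 5.91 and 5.04 FPKM in dopaminergic neurons. Whole midbrain library 2 was again the lowest of its group and lay nearest to the dopaminergic libraries. The log2 fold change of Gabrb1 was -1.32 ± 0.204 (SE, limma adjusted p = 0.000183), and it was -1.52 without that library. Gabrb1 has 13838 exonic bases in GENCODE M21, the most of the 7, and with a correction for exonic length its log2 fold change was -0.83 (limma adjusted p = 0.00125).

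Gabrg1, the gamma1 subunit, is known for a restricted pattern in the brain and for expression in some glia. It was at 8.06, 9.62, 8.31, 8.55 and 6.92 FPKM in whole midbrain and at 1.13, 1.52, 0.939 and 1.75 FPKM in dopaminergic neurons. As for Gabra5, dopaminergic libraries 2 and 4 were the higher ones. Its log2 fold change was -2.0 ± 0.124 (SE, limma adjusted p = 2.4e-07), and 4.73 percent of the genes tested had a lower one. The order of Gabrg1 and Gabrb2 (-1.89) depended on the setting. Gabrb2 had the lower value of the pair with a pseudocount of 5 (-1.61 against -1.07), quantile normalization (-2.17 against -1.67), library weights (-2.0 against -1.94) and without whole midbrain library 2 (-2.03 against -1.95). About 431 reads or more lay behind each value of a member in a library, as estimated from the FPKM that 1 read is worth and from GENCODE lengths.

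**Figure D3:**
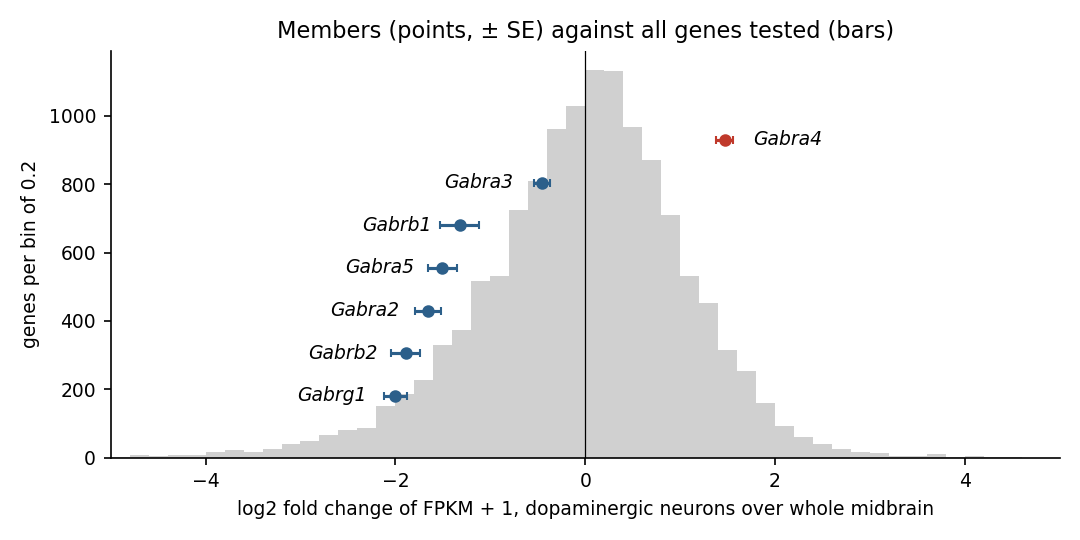
Log2 fold changes of the members (points, ± SE, spread vertically only for legibility) over the distribution of all 13106 genes tested (bars, genes per bin of 0.2). Gabra4 (red) lies on the right side and the other members (blue) on the left, with Gabra3 nearest to 0.

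The median log2 fold change of the 7 members was -1.51, beside 0.04 over all genes tested. All calls of the members held under each of 21 alternative settings. FPKM summed to more in the dopaminergic libraries, and when values were rescaled to a common sum (TPM) the median of all genes moved by -0.64. Gabra4 then stood at 0.90 (limma adjusted p = 9.8e-05) and Gabra3 at -1.16.

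Gabra4 went from the last to the first place in the order of levels. In whole midbrain the order of mean FPKM was Gabrb2, Gabra3, Gabrb1, Gabra5, Gabra2, Gabrg1 and Gabra4. The ranges of Gabra3 and Gabrb1, of Gabrb1 and Gabra5, and of Gabra5 and Gabra2 overlapped there, so these neighbours did not separate beyond their spread. In dopaminergic neurons the order was Gabra4, Gabra3, Gabrb2, Gabrb1, Gabra5, Gabra2 and Gabrg1. The ranges of Gabra4 and Gabra3 overlapped, although Gabra4 was above Gabra3 in 4 of 4 libraries, and so did those of Gabrb1 and Gabra5 and of Gabra5 and Gabra2.

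Within a library, shares of subunits do not depend on how libraries are scaled to each other. Of the summed FPKM of the 4 alpha members, Gabra4 made up 9.71 ± 1.08 percent (SD, n = 5) in whole midbrain and 41.7 ± 1.78 percent (SD, n = 4) in dopaminergic neurons. Gabra3 had a like share, 38.6 ± 2.57 percent against 37.9 ± 2.48 percent, with overlapping ranges. The shares of Gabra2 and Gabra5 were 25.0 ± 2.33 and 26.7 ± 3.98 percent in whole midbrain and 9.10 ± 2.02 and 11.2 ± 2.83 percent in dopaminergic neurons.

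Set against all 6 alpha subunit genes of the mouse, which includes those that are not members, Gabra4 made up 2.76 to 3.46 percent in whole midbrain libraries and 23.8 to 27.2 percent in dopaminergic libraries. The share of Gabra3 was 10.9 to 14.0 percent in whole midbrain and 21 to 25.4 percent in dopaminergic neurons, a higher range. Gabra2 and Gabra5 had overlapping ranges on that basis. The remaining alpha genes thus held less of the sum in dopaminergic neurons. Of the summed FPKM of the 2 beta members, Gabrb2 made up 74.7 ± 2.53 percent in whole midbrain and 67.5 ± 3.31 percent in dopaminergic neurons. Gabrb1 made up the rest, 25.3 and 32.5 percent, with every dopaminergic library above every whole midbrain library. Among all 3 beta genes, a denominator chosen after seeing the data, the share of Gabrb2 was 42.0 ± 3.81 percent in whole midbrain and 26.3 ± 1.10 percent in dopaminergic neurons. That of Gabrb1 then overlapped between the groups, at 14.3 ± 2.77 and 12.7 ± 1.39 percent. Among the 3 gamma genes Gabrg1 went from 16.6 ± 2.04 to 7.13 ± 2.16 percent. These shares are a description, without a test.

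**Figure D4:**
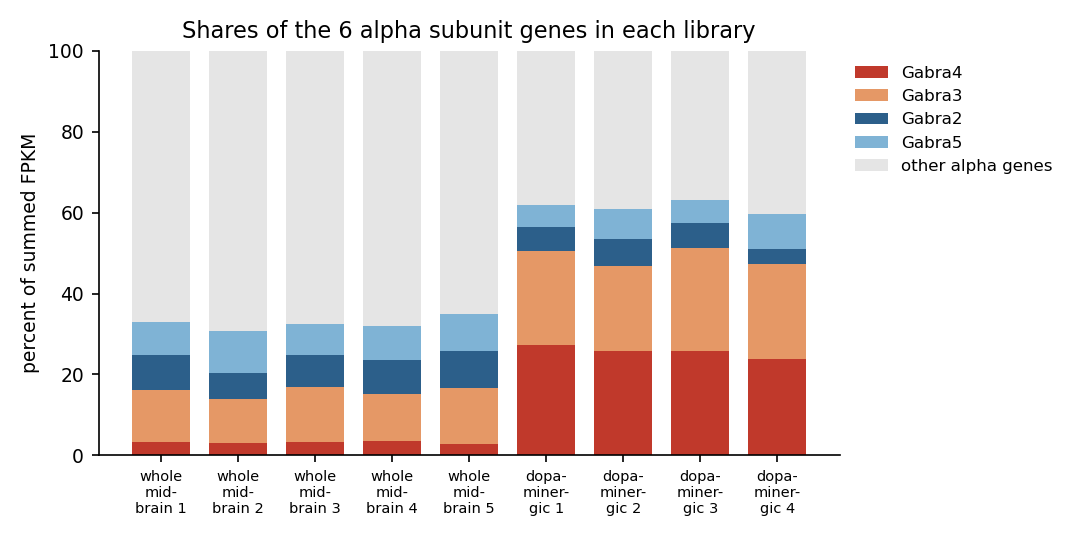
Percent of the summed FPKM of the 6 alpha subunit genes in each of the 9 libraries, stacked by gene, with the genes that are not members in pale grey. Gabra4 (red) makes up 2.76 to 3.46 percent in the whole midbrain libraries and 23.8 to 27.2 percent in the dopaminergic libraries.

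Ratios within a library set Gabra4 against its chromosome 5 neighbours. Gabra4 over Gabrb1 ran from 0.244 to 0.555 over the whole midbrain libraries and from 2.44 to 3.08 over the dopaminergic ones. The ratio to Gabra2 was 0.305 to 0.463 against 3.90 to 6.43, and that to Gabrg1 was 0.487 to 0.634 against 8.46 to 15.3. In each ratio Gabra4 was the lower gene in whole midbrain and the higher one in dopaminergic neurons.

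Markers of glia were higher in the same dopaminergic libraries as some members. In dopaminergic libraries 1 to 4 Gabrg1 stood at 13.6, 18.3, 11.3 and 21.2 percent of the mean in whole midbrain and Gabra5 at 22.7, 36.3, 23.8 and 41.1 percent. The median of the 9 astrocyte markers stood at 5.01, 6.47, 4.58 and 7.51 percent, and the median of the 7 oligodendrocyte markers at 7.72, 9.85, 8.64 and 14.9 percent, so libraries 2 and 4 were the higher ones there too. Gabrb2 stood at 23.9, 27.4, 22.5 and 26.0 percent, with libraries 2 and 4 again the higher ones over a narrower range. Gabra2 did not follow, with library 4 the lowest at 18.4 percent. Nor did Gabrb1, at 36.3, 34.0, 37.2 and 31.8 percent, or Gabra3, at 66.3, 70.1, 73.2 and 75.1 percent. The median of the 3 GABAergic markers stood at 17.9, 19.9, 15.6 and 17.6 percent. These values were near those of Gabrg1, but library 4 was below library 1, unlike for Gabrg1. The median of the 2 glutamatergic markers stood at 16.3, 21.2, 12.3 and 13.7 percent, also with library 4 below library 1. Malat1, which is in none of the marker lists, stood at 0.930, 2.49, 1.01 and 3.25 percent, with libraries 2 and 4 the higher ones as well. None of the markers of astrocytes, oligodendrocytes, precursors, microglia and endothelial cells was at 0 in a dopaminergic library, and the part of such cells in the levels of the members was not tested. Gabra4 stood above its whole midbrain mean, at 296 to 342 percent, while all 36 markers of other neurons, glia and vessels were lower.

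**Figure D5:**
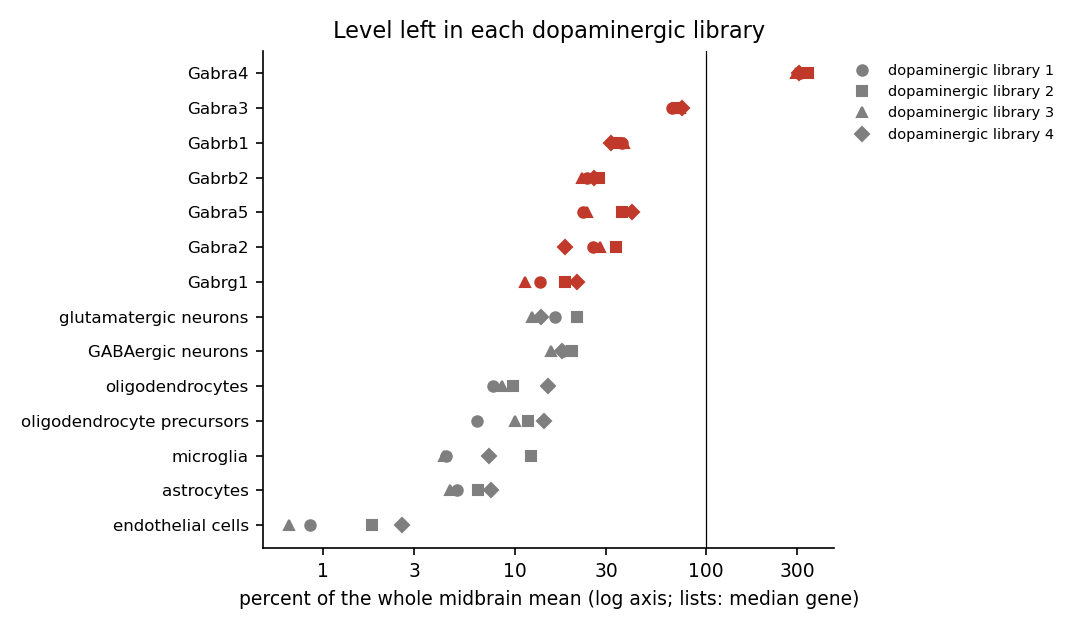
Level in each dopaminergic library as a percent of the whole midbrain mean, on a log axis, for the members (red) and for the median gene of 7 marker lists of other cells (grey), with 1 symbol shape per library. The members lie from 11.3 to 342 percent, and the astrocyte list from 4.58 to 7.51 percent.

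The profile nearest to each member was sought among 8091 other genes whose mean reached 5 FPKM, as the root mean square difference of centred log2 values over the 9 libraries. For Gabra4 it was that of Rnf165, a ubiquitin ligase gene, at a distance of 0.0914, with 11.7 ± 0.962 FPKM in dopaminergic neurons against 3.54 ± 0.346. Mmaa was nearest to Gabra3 (0.0540), Add3 to Gabra2 (0.121), Srebf1 to Gabra5 (0.141), Adcyap1r1 to Gabrb1 (0.129) and Zbed6 to Gabrb2 (0.0876). Among the members, Gabra2 and Gabrb2 were nearest to each other (0.237), as were Gabra5 and Gabrg1 (0.274). More than 100 other genes lay nearer to the member in each of these cases.

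Of the other 12 subunit genes of the receptor family, 5 passed the filter and all 5 fell, with log2 fold changes from -2.13 to -0.79, and their means were still 2.26 to 26.7 FPKM in dopaminergic neurons. The remaining 7 were not tested and had means of at most 1.41 FPKM in whole midbrain and 0.233 FPKM in dopaminergic neurons. Among the 12 subunit genes tested, members included, Gabra4 was thus the only gene that rose. Over all genes tested, 38.3 percent were called higher and 36.0 percent lower.

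Of 32 genes of the scaffold, the trafficking and the chloride gradient of the receptor, 8 rose and 16 fell, so that 75 percent were called, near the 74.2 percent of all genes tested. Their median log2 fold change was -0.10. The balance depended on scaling, with 11 higher and 11 lower after median centring and 4 higher and 21 lower as TPM. Of 11 genes of the scaffold at inhibitory synapses 2 rose and 4 fell, 54.5 percent called. Nlgn2, the neuroligin of inhibitory synapses, was at 26.8 ± 2.03 FPKM against 17.9 ± 3.67, and its log2 fold change of 0.58 became -0.094 as TPM (limma adjusted p = 0.0057 and 0.713). Gphn, the gephyrin that anchors the receptors, was at 14.1 ± 1.67 against 19.4 ± 3.54 (-0.42, limma adjusted p = 0.0249). Lhfpl4, which links the receptor to neuroligin, stayed near 0 (log2 fold change -0.0092, limma adjusted p = 0.959).

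Of 13 genes of receptor trafficking 4 rose and 6 fell, 76.9 percent called and again near the share of all genes tested. The GABA receptor-associated protein Gabarap and its relatives Gabarapl1 and Gabarapl2, which also serve autophagy, rose by 1.83, 1.56 and 1.37 on the log2 scale. Gabarap was at 286 ± 8.59 FPKM against 79.7 ± 5.67. With quantile normalization Gabarapl1 missed the threshold (0.46, limma adjusted p = 0.145). Plcl1, which binds beta subunits and the associated protein, fell by 1.12, and Rdx, the radixin that anchors alpha5 receptors, fell by 1.11. The kinesin adaptors Trak1 and Trak2 went apart in the main fit, at 0.56 and -1.03. Their values under other scalings are not given here.

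All 8 genes of the chloride gradient were called, 2 higher and 6 lower. Of all genes tested 74.2 percent were called, 38.3 percent higher and 36.0 percent lower. Slc12a2, the importer of chloride, was at 2.85 ± 0.297 FPKM against 25.9 ± 2.19 and fell by 2.80 on the log2 scale. Slc12a5, the neuronal exporter of chloride, was at 26.2 ± 1.96 against 63.5 ± 3.65 and fell by 1.24. The kinase gene Stk39, which acts on both transporters, rose by 1.04, and by 0.35 as TPM (limma adjusted p = 0.011). Its relative Oxsr1 fell by 0.85 and Wnk1, which acts on both kinases, by 1.28. Car7, a carbonic anhydrase of neurons, was at 3.58 ± 0.788 against 1.27 ± 0.549 (1.04, limma adjusted p = 0.00115). As TPM its log2 fold change was 0.72 and did not pass (limma adjusted p = 0.0700). The chloride channel gene Clcn2, also known from glia, fell by 1.93.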

How the data were processed

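FPKM were deposited by the authors in 1 table of 9 libraries. They were made with Cufflinks 2.1.1 and TopHat2 2.0.8 on mm10, per the submitters' processing notes. The annotation, options and strand handling were not given in the sources used here. Dopaminergic values have at most 6 significant digits and whole midbrain values more, so the groups' files were not written alike, which cannot be told apart from the groups. Depth was estimated from the FPKM of 1 read in single-exon receptor genes (fragments of 200 bases assumed, at least 8 genes agreeing within 1 percent): 16.2 to 33.5 megareads for whole midbrain and 47.2 to 62.5 for dopaminergic libraries.

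The test was limma 3.58.1 (R 4.3.3), applied to log2(FPKM + 1), which understates changes of low genes, two-sided, with a mean-variance trend, tested on simulated data. Python 3.11.15 was used for the rest. No label says that library numbers pair libraries, so the main fit had no block. Members and lists were chosen with earlier results of these data known. The rule named all members, the 2 largest rises and falls of each list and each member's nearest profile; some genes it named are not reported here, and Gphn, Lhfpl4, Gabarapl2, Trak1, Trak2, Slc12a5, Oxsr1, Wnk1 and Clcn2 were added after their values were seen. Promoter motifs were chosen likewise.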

Additional observations from a re-analysis of the deposited data

Results flagged for a closer look

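In 38 groups of libraries examined, 5 held a library far from the others, where chance gives about 1 in 20. Whole midbrain library 2 was the one in 4 of them: it was lowest for Gabra2 (10.1 FPKM, the others 12.9 to 13.6), for Gabarapl1 (139, the others 232 to 246) and for Nlgn2 (11.5, the others 17.8 to 20.3), and highest for Gabra5 (16.1, the others 12.4 to 13.2). Dopaminergic library 3 was lowest for Stk39 (66.6 FPKM, the others 80.7 to 83.0).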

How the results depend on the processing

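The 7 members kept their direction and call under all 21 alternatives, at 1 higher and 6 lower, with Gabra4 between 0.90 and 1.63 and Gabrg1 between -2.94 and -1.07 on the log2 scale; a pseudocount of 5 gave the smallest fall of Gabrg1. The replicate number as a block, fitted without whole midbrain library 5, gave 1 member higher and 6 lower. It gave 8 partner genes higher and 11 lower, as did leaving out that library without a block. The deviations of same-numbered libraries correlated at -0.0498 to 0.0190. Without the filter on low values 8 other subunit genes were lower. Of the partner genes 8 rose and 16 fell; 4 rose and 14 fell under quantile normalization, 4 and 21 as TPM, 11 and 11 after median centring, 13 and 16 with library weights, 13 and 12 with length correction, and 8 to 12 and 11 to 17 when a library was left out. The sign turned for Nlgn2 (-0.094 as TPM). The cause was not tested. Of all genes called, 51.5 percent were higher, against 21.2 percent as TPM, 40.6 percent under upper-quartile scaling and 62.6 percent with a minimum mean of 5 FPKM. With all genes of a class as denominator, a choice made after seeing the data, the share of Gabra4 among alpha genes was 25.6 percent in dopaminergic neurons and 3.16 percent in whole midbrain, and that of Gabrb2 among beta genes 26.3 and 42.0 percent.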
